A study of Caenorhabditis elegans with 6 samples.

Results

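Small RNAs that survived periodate oxidation were examined in wild-type *C. elegans*, using 3 of the 6 small RNA libraries of the study: 1 library made from oxidized RNA and 2 made from untreated RNA. The libraries were chosen by their labels, which give the genotype and whether the RNA was exposed to sodium periodate (NaIO4). The oxidized library came from the wild-type strain N2, and the 2 untreated libraries from worms that carry the germ granule protein PGL-1 fused to RFP (genotype pgl-1::RFP), which served as wild-type. All were synchronized adults kept at 20 °C and extracted as whole animals, so germline and somatic small RNAs are mixed. The other 3 libraries, 2 untreated and 1 oxidized, came from *eggd-1* null mutants at the same stage and temperature and are used only for side by side values. With 1 oxidized library no test was possible, and a difference due to oxidation and a difference between the strains cannot be told apart. No p-value is given for that reason.

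Periodate attacks the last ribose of an RNA when both of its hydroxyl groups are free, after which few such molecules enter a library. According to the labels a β-elimination step was part of the treatment. A 2′-O-methyl group at the terminal ribose blocks the reaction. In *C. elegans* the methyltransferase HENN-1 places this group on piRNAs, which are bound by the Argonaute PRG-1 in the germ line, and on the 26G-RNAs bound by ERGO-1 in oocytes and embryos, whereas miRNAs, 22G-RNAs and the 26G-RNAs bound by ALG-3/4 during spermatogenesis are known as unmethylated.

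The untreated libraries held 28178881 and 31245662 reads that mapped to the genome, and the oxidized library 27109317. Abundance is given in RPM (the read count scaled to the reads of the library that mapped to the genome), and 3 reads, the limit that a count of 0 allows, are worth 0.106, 0.0960 and 0.111 RPM in that order. The share of reads assigned to piRNAs, 22G-RNAs, 26G-RNAs or miRNAs was 62.5% and 62.2% before and 88.4% after oxidation. In the text below, a ratio is the oxidized RPM over the mean of the 2 untreated RPM, and a range in parentheses gives the ratio to each untreated library. Features with a mean of at least 10 untreated reads were compared, and 2-fold marks the size that is counted. Because RPM is a share of all mapped reads, a higher value after oxidation does not separate a gain of that RNA from the loss of others. In whole animals, fewer cells of a type and less RNA per cell cannot be told apart either.

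Oxidation came with an almost complete exchange of classes. piRNAs made up 5.83% and 6.05% of genome-mapped reads in the untreated libraries and 86.1% in the oxidized one (Wilson 95% interval 86.101 to 86.127%, counting error only). The piRNA sum was thus 14.5-fold higher (14.2 to 14.8). 26G-RNAs, a minor class, went from 0.137% and 0.140% of reads to 0.995%, a 7.17-fold higher sum (7.09 to 7.24).

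The classes without known methylation lay on the other side. 22G-RNAs, which are made by RNA-dependent RNA polymerases and form the largest class in untreated worms, held 40.5% and 39.2% of reads before and 1.07% after oxidation, so that their sum was 37.3-fold lower (36.6 to 37.9). miRNAs held 15.97% and 16.8% and then 0.183%, an 89.6-fold lower sum (87.2 to 91.9). Reads that matched transposon consensus sequences, which include small RNAs of every class, summed to 23976 and 22676 RPM before and 1588 RPM after, 14.7-fold lower (14.3 to 15.1). In all of these sums the untreated libraries lay next to each other and the oxidized library stood far from both.

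**Figure D1:**
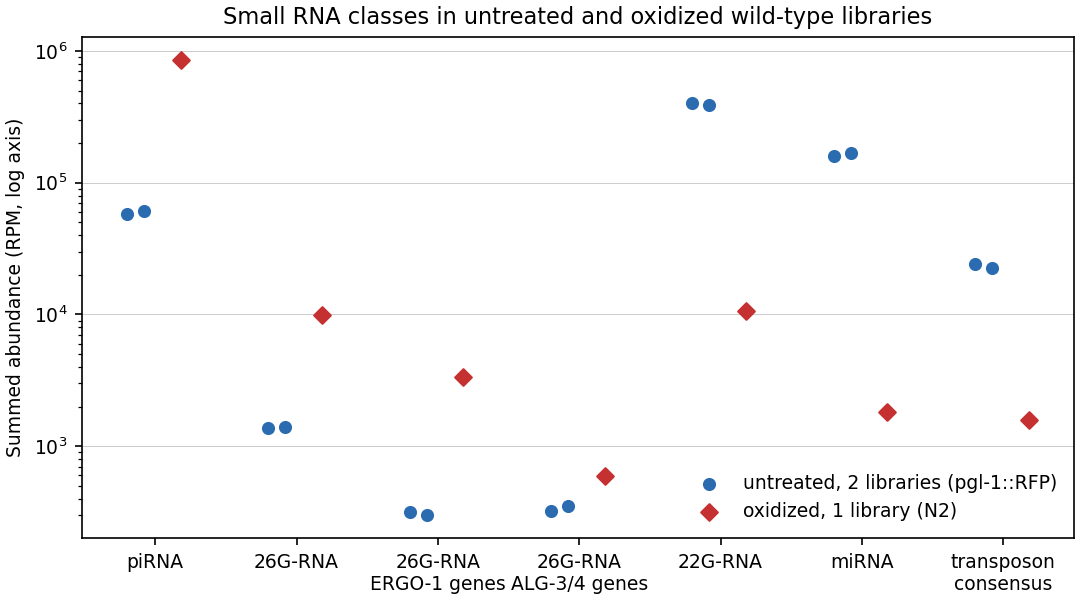
Summed abundance of each small RNA class in RPM (log axis) in the 2 untreated libraries (circles) and the oxidized library (diamonds). piRNAs and 26G-RNAs were higher in the oxidized library, 22G-RNAs, miRNAs and transposon consensus reads lower, and the 26G-RNA sum of ERGO-1 class genes lay 10.96-fold higher against 1.76-fold for ALG-3/4 class genes.

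piRNAs moved together. Of the 13994 annotated piRNA loci, which are 21 nucleotides long, 6116 had enough untreated reads to be compared, and 6102 of them (99.8%) stood 2-fold or more above the untreated mean after oxidation, against 7 (0.114%) as far below it. The median locus ratio was 14.1, the middle 50% of loci lay between 11.2 and 17.8, and 90% lay between 7.47 and 26.1. This spread is narrow beside the abundance of the loci, whose mean untreated reads ran from 10 to 28693.

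The ratio hardly varied with the abundance or sex class of a piRNA. Over 5 bins of untreated abundance with about equal numbers of loci, the median ratio was 13.9, 13.9, 14.4, 13.99 and 14.1 from the least to the most abundant. The 1686 compared loci that the deposited annotation marks as spermatogenic had a median of 13.97, the 1269 oogenic loci 14.5 and the 3161 loci of neither class 13.9. Spermatogenic loci accordingly kept their share of all piRNA reads, 10.5% and 10.2% before and 10.3% after oxidation, and oogenic loci held 33.4% and 33.8% before and 34.5% after. Along chromosome IV, home of the piRNA clusters, the median was 14.1 for 699 loci of the first cluster (4786213 to 6989562), 14.1 for 5331 loci of the second (13543927 to 17199397), and 12.8 for 74 loci elsewhere on the chromosome.

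The most abundant piRNA, 21ur-3730 (chromosome IV, 14301789 to 14301809), stood at 987 and 946 RPM in the untreated libraries and 11852 RPM in the oxidized one, 12.3-fold higher (12.01 to 12.5). The next in the untreated libraries, 21ur-2446, had 643 and 687 RPM and then 6404 RPM, a ratio of 9.63, and 21ur-739 had 602 and 689 RPM and then 6591 RPM, a ratio of 10.2. The piRNA 21ur-1 gave 5.04 and 5.76 RPM before and 54.0 RPM after oxidation, 10.01-fold higher. The ratios of 21ur-2446, 21ur-739 and 21ur-1 lay below the lower quartile of all compared loci, 11.2. That of 21ur-3730 lay above it.

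Oxidation also brought rare piRNAs into view. Reads were counted at 10887 and 11081 loci in the untreated libraries and at 13122 loci in the oxidized library. The 1469 loci with reads in the oxidized library alone had a median of 3 reads and at most 56, while 238 of the 11891 loci seen in an untreated library had none after oxidation, of which 2 had a mean of at least 10 untreated reads.

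A few piRNAs stood above the rest. Among loci with a mean of at least 50 untreated reads, 21ur-2005 (chromosome IV, 14587076 to 14587096) had the highest ratio, with 2.91 and 2.05 RPM untreated and 559 RPM oxidized, 225-fold higher (192 to 273). 21ur-5522 followed with 3.51 and 1.44 RPM and then 307 RPM, 124-fold higher (87.4 to 213), and 21ur-45 with 3.83 and 2.50 RPM and then 350 RPM, 111-fold higher (91.2 to 140.1). In each of the 3, both untreated libraries lay far below the oxidized library. A rarer locus, 21ur-2400, chosen after its values were seen, had 25 and 15 reads and then 4225, 228-fold higher (176 to 325). In *eggd-1* worms the ratio of 21ur-2005 was 190 and that of 21ur-2400 was 43.4, each against the untreated *eggd-1* libraries.

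**Figure D2:**
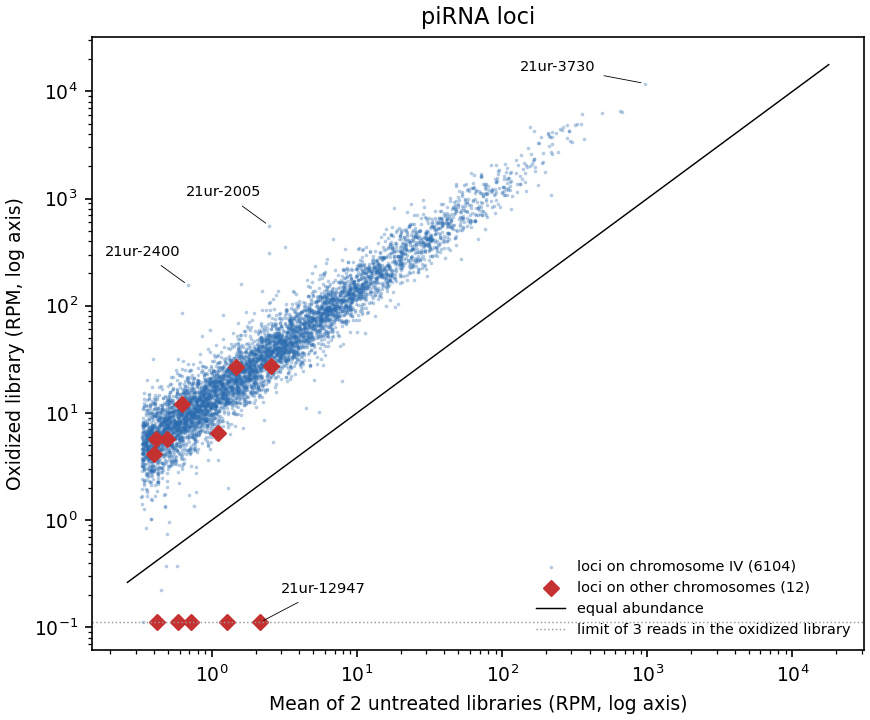
Abundance of 6116 piRNA loci in the oxidized library against the mean of the 2 untreated libraries (RPM, log axes), with loci on chromosome IV as dots and 12 loci on other chromosomes as diamonds. Values of up to 3 oxidized reads are drawn on the dotted line. Nearly all loci form a band above the line of equal abundance, and 5 of the 12 loci off chromosome IV lie on the dotted line.

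The loci that were lower after oxidation came mostly from outside chromosome IV. Off this chromosome, 366 piRNA loci are annotated and 12 could be compared: 5 of these were lowered by 2-fold or more and the other 7 raised by as much, against 2 lowered and 6095 raised among 6104 loci on chromosome IV. The median ratio was 8.17 off chromosome IV and 14.1 on it, and the ratios of the summed reads were 8.69 and 14.5, a difference that was not tested. The loci of this comparison other than 21ur-12947 were named after their values were seen. 21ur-12947 (chromosome X, 13397505 to 13397525) had 79 and 46 untreated reads, 2.80 and 1.47 RPM, and none in the oxidized library, which makes it at least 19.3-fold lower by the limit of 3 reads. It also had no read in the oxidized *eggd-1* library.

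21ur-8602 (chromosome II) had 35 and 40 reads before and 1 after oxidation, a ratio of 0.0292 (Poisson 95% interval 0.000741 to 0.163). 21ur-9982 (chromosome V) went from 15 and 20 reads to 1, and 21ur-10824 (chromosome III) from 14.5 and 29 reads to 0.5, a fraction that arises where a read is shared between features. 21ur-8285 (chromosome II, 3373666 to 3373686) had 10 and 15 reads and then none, at least 3.77-fold lower. All 5 were thus far below the band of the other piRNAs. On chromosome IV, 21ur-2303 had 10 reads in each untreated library and 1 after oxidation, and 21ur-3745 had 9 and 18 reads and then 6, a ratio of 0.494 (Poisson 95% interval 0.181 to 1.08).

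Several of the lowered loci lie inside genes with many 22G-RNAs. 21ur-12947 lies opposite to the strand of *F02C12.3*, whose 22G-RNAs averaged 2085 RPM in the untreated libraries, 21ur-8602 opposite to the pseudogene *C01G6.10* with 1022 RPM, and 21ur-8285 opposite to the lincRNA *linc-11* with 836 RPM. Reads at these loci therefore run in the direction of the 22G-RNAs of the gene. 21ur-10824 lies on the strand of *Y54F10BM.9*, with 250 RPM of 22G-RNAs. The other 3 lowered loci, 21ur-9982, 21ur-2303 and 21ur-3745, overlap no gene with counted 22G-RNAs or 26G-RNAs. Opposite to a gene with at least 100 RPM of 22G-RNAs lay 32 compared piRNA loci. Of these, 29 were raised and 3 lowered by 2-fold or more, with a median ratio of 13.3. On the strand of such a gene lay 24 compared loci, of which 22 were raised and 1 lowered, with a median of 12.03. Over all 6116 compared loci, 6102 (99.8%) were raised and 7 (0.114%) lowered, with a median of 14.1. The differences between these groups were not tested. By the counting rules piRNA reads start with T and 22G-RNA reads with G or A, so no read counted as a 22G-RNA is in a piRNA count. The part of other small RNAs that start with T in the counts of the lowered loci was not tested.

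26G-RNAs split into groups on either side of equality. Of 409 genes with enough untreated 26G-RNA reads, 97 (23.7%) were above by 2-fold or more after oxidation, 302 (73.8%) below by as much, and 10 lay between. With genome-mapped reads outside piRNAs as the denominator, which multiplies ratios by 6.77, the split was 125 higher and 196 lower. The genes that were higher carried most of the reads, so the class sum was higher while the median gene ratio was 0.0814.

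**Figure D3:**
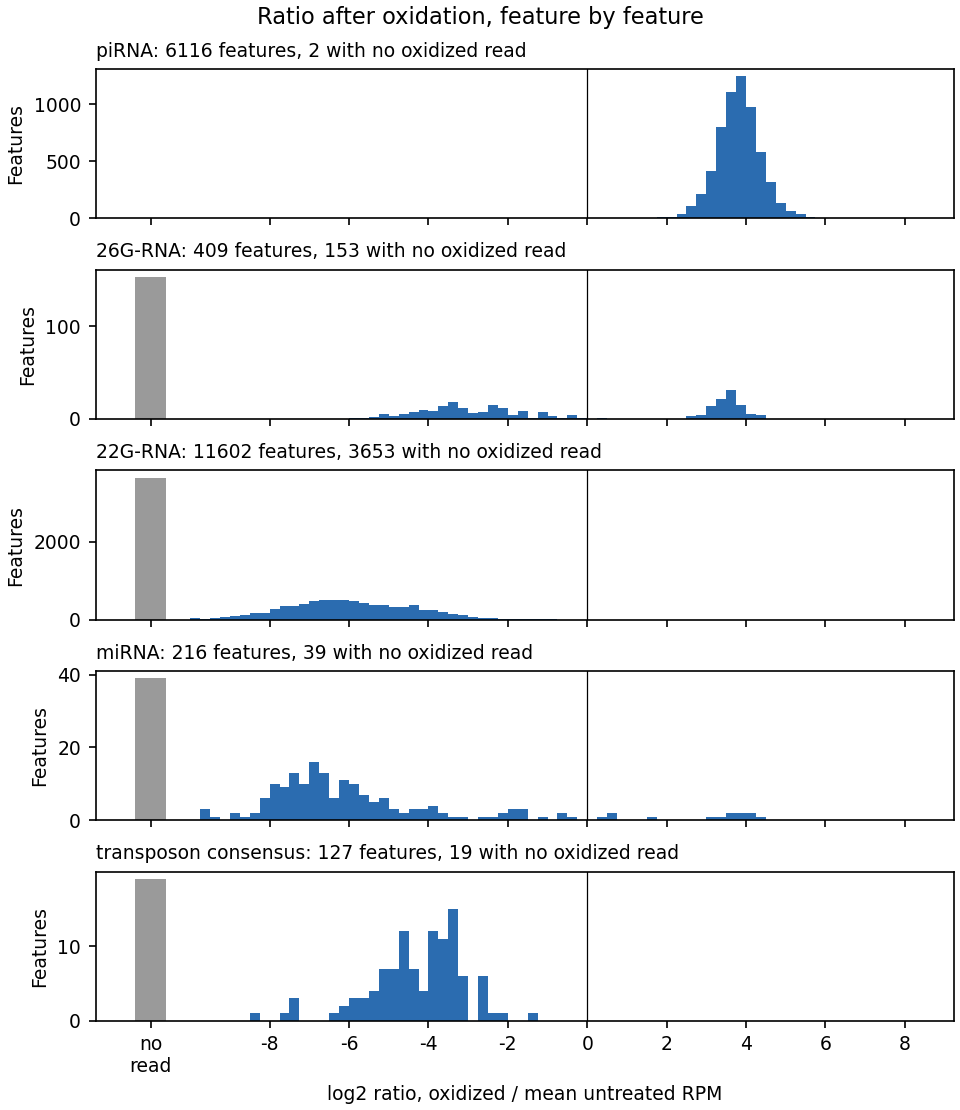
Number of features at each log2 ratio of oxidized over mean untreated RPM, by class, with features without an oxidized read in the grey bar and 25 22G-RNA genes beyond the axis drawn at its left end. piRNAs form a single peak above 0, 26G-RNAs a peak on either side, and the 3 other classes lie almost wholly below 0.

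The ERGO-1 class supplied 36 of the 97 raised genes. All 36 compared genes of the 59 in this class were at least 2-fold higher, beside 23.7% of all 26G-RNA genes, and their ratios ran from 6.59 to 16.7 with a median of 10.9. Their summed 26G-RNAs went from 315.5 and 298.7 RPM to 3367 RPM, 10.96-fold higher (10.7 to 11.3). The pseudogene *E01G4.7* (chromosome II, 13477471 to 13478929) led the class with 44.1 and 38.7 RPM and then 496 RPM, a ratio of 11.98 (11.2 to 12.8). Its neighbour *E01G4.5*, a target of ERGO-1 often used to follow this pathway, had 12.8 and 12.5 RPM and then 120 RPM, a ratio of 9.50 (9.39 to 9.61). At the ends of the class lay *F49B2.3* with 0.727 and 0.352 RPM and then 3.56 RPM, and the lincRNA gene *H09G03.1* with 0.461 and 0.352 RPM and then 6.79 RPM.

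The ALG-3/4 class, which holds targets of sperm 26G-RNAs, lay on the other side. Of its 1325 genes 236 were compared, of which 229 were lower by 2-fold or more and 2 higher, with a median ratio of 0.0393. With reads outside piRNAs as the denominator, 23 were higher and 143 lower. *B0205.10*, the most abundant of the lowered genes, had 5.34 and 7.23 RPM and then 0.295 RPM, 21.3-fold lower. *R02D5.7* had 2.24 and 2.75 RPM and no oxidized read, at least 22.5-fold lower, and *Y39E4B.13* had 1.81 and 2.08 RPM and no oxidized read, at least 17.6-fold lower. *Y38C1AA.7* had 47 and 81 reads and then 1, a ratio of 0.0173 (Poisson 95% interval 0.000438 to 0.0965). Spermatogenic genes, a partly overlapping class, gave 0 of 232 higher and 228 lower.

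The sum of the ALG-3/4 class nevertheless was 1.76-fold higher, from 324.2 and 350.9 RPM to 596 RPM. A single gene, *K02E2.11* (chromosome V, 20383315 to 20384405), held 89.1% of the oxidized sum, with 44.1 and 52.5 RPM before and 530 RPM after oxidation, a ratio of 10.98 (10.1 to 12.04). Without it the class sum had a ratio of 0.225, or 1.52 with reads outside piRNAs as the denominator. *K02E2.11* lies 1278 bases from the ERGO-1 class gene *K02E2.6* on the same strand, which had 25.3 and 23.8 RPM and then 320.5 RPM, a ratio of 13.1. The second gene of the class that was higher, *Y57G11C.36* (chromosome IV, 14771415 to 14773781), had 3.14 and 3.36 RPM and then 32.7 RPM, and it overlaps the ERGO-1 class gene *Y57G11C.51* by 190 bases on the same strand, so reads in the overlap were divided between them.

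**Figure D4:**
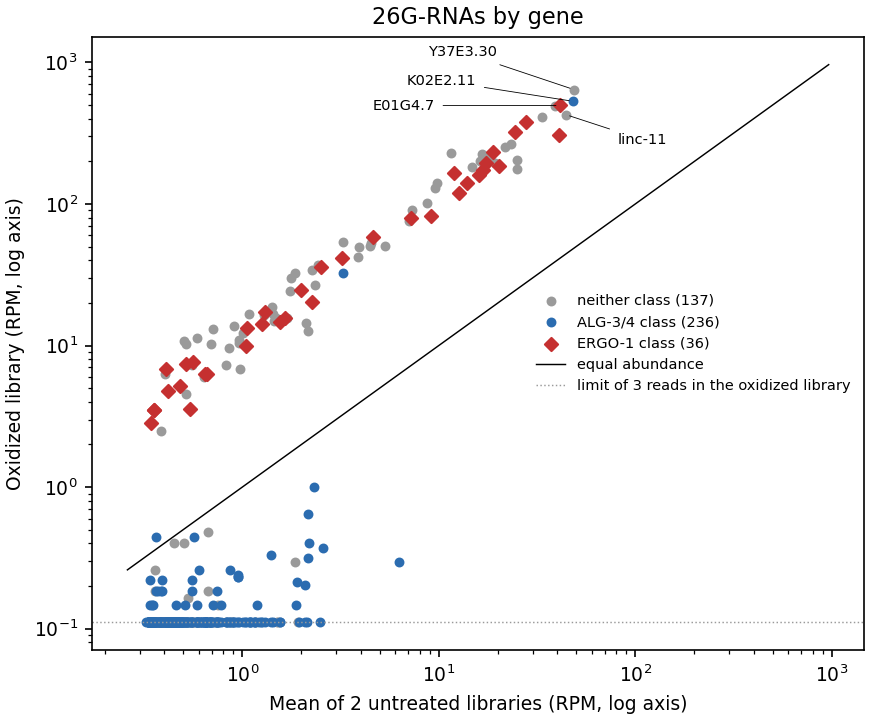
26G-RNA abundance of 409 genes in the oxidized library against the mean of the 2 untreated libraries (RPM, log axes), by class. Values of up to 3 oxidized reads are drawn on the dotted line. The 36 ERGO-1 class genes lie above the line of equal abundance together with 59 genes of neither class, and 229 of 236 ALG-3/4 class genes lie at least 2-fold below it.

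Many of the raised genes belong to neither class. Of 137 such genes compared, 59 were above and 73 below by 2-fold or more. The protein-coding gene *Y37E3.30* had the most 26G-RNAs in the untreated mean and in the oxidized library, with 51.0 and 46.5 RPM and then 642 RPM, a ratio of 13.2 (12.6 to 13.8). The pseudogene *Y17D7C.3* had 41.0 and 37.3 RPM and then 490 RPM (12.5-fold), and *linc-11* had 41.0 and 47.5 RPM and then 428 RPM (9.67-fold). The highest ratio among genes with at least 50 reads was that of the pseudogene *Y59H11AR.6* (chromosome IV, 8597762 to 8598727), with 12.4 and 10.7 RPM and then 231 RPM, 19.9-fold (18.6 to 21.5). *H09G03.4* (17.7-fold), *linc-121* (17.1-fold) and *Y17D7C.6* (16.7-fold) followed. None of the genes named here carries the ERGO-1 label. The ratios of the last 4 lay above the highest of the ERGO-1 class, 16.69, and those of the first 3 within its range.

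The share of raised 26G-RNA genes was not the same for each gene type and pathway label, and no difference between them was tested. At least 2-fold higher were 22 of 29 lincRNA genes and 27 of 34 pseudogenes, but 45 of 338 protein-coding genes. MUT-16 dependent genes, named for a scaffold of mutator foci, gave 44 higher of 90, PRG-1 dependent genes 15 of 45, WAGO-4 genes 17 of 77, CSR-1 genes 8 of 30, HRDE-1 genes 3 of 32 and WAGO-1 genes 2 of 30, where the share over all genes was 23.7%. A gene may carry several of these labels.

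Genes of the ERGO-1 class allowed 26G-RNAs and 22G-RNAs of the same gene to be set side by side, since ERGO-1 26G-RNAs act upstream of secondary 22G-RNAs. In 36 of 36 compared genes the 26G-RNAs were more than 2-fold above and the 22G-RNAs more than 2-fold below their untreated mean, the latter with ratios from 0.00151 to 0.0772. At *E01G4.5* the 22G-RNAs had 1072 and 971 RPM before and 2.16 RPM after oxidation, 473-fold lower, and at *E01G4.7* they had 904 and 906 RPM and then 8.95 RPM, 101-fold lower. Over the 36 genes there were 3.30 and 3.32 26G-RNA reads per 100 22G-RNA reads in the untreated libraries and 4345 in the oxidized one.

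22G-RNAs were lower at nearly every gene. Of 11602 genes compared, 11594 (99.9%) were lower by 2-fold or more and 0 (0%) higher, although 27 were higher with reads outside piRNAs as the denominator. The median ratio was 0.00795, a value limited by depth because 3653 genes had no oxidized read. *linc-22*, the gene with the most 22G-RNAs before oxidation, had 4604 and 4333 RPM and then 8.20 RPM, 545-fold lower. Among small RNA pathway genes, the 22G-RNAs of the piRNA Argonaute gene *prg-1* had 314.5 and 318.9 RPM and then 2.29 RPM, those of the methyltransferase gene *henn-1* had 14.8 and 14.7 RPM and then 0.295 RPM, and those of the piRNA trimmer gene *parn-1* had 506.5 and 446.2 RPM and then 17.9 RPM. The 22G-RNAs of these 3 genes were 138-, 50.0- and 26.6-fold lower.

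The ratio of the summed 22G-RNAs differed between pathways, and the differences were not tested. It was lowest in the ERGO-1 class, whose sum had a ratio of 0.00834, followed by CSR-1 genes, which are mostly germline genes licensed for expression, at 0.0112, and ALG-3/4 genes at 0.0166. WAGO-4 genes had 0.0245, PRG-1 dependent genes 0.0264, HRDE-1 genes 0.0332, MUT-16 dependent genes 0.0345 and WAGO-1 genes 0.0368, all from sums in which the untreated libraries differed by at most 6.10% of their mean. Transposon genes had the highest ratio of those listed, 0.0737, from 24219 and 22817 RPM to 1732 RPM, and 386 of 386 were at least 2-fold lower.

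Of the 8 22G-RNA genes that were not at least 2-fold lower, 6 had fewer than 50 mean untreated reads. The other two were the pseudogene *Y57G11C.57* (chromosome IV, 14780940 to 14781266), whose reads on the 22G-RNA count were 20.97 and 20.7 RPM before and 20.9 RPM after oxidation, a ratio of 1.00, and *linc-154*, with 2.56 and 2.72 RPM and then 2.21 RPM. *C35D6.3* had 7.90 and 8.03 RPM of 22G-RNAs and then 3.06 RPM. Its 26G-RNAs had 6.35 and 7.71 RPM and then 75.5 RPM, 10.7-fold higher. The meiotic spindle gene *mesp-1* had 85.7 and 76.3 RPM and then 25.3 RPM, a ratio of 0.313, without 26G-RNAs above 0.0710 RPM. With reads outside piRNAs as the denominator the ratios of these 4 genes were all above 2. No piRNA locus is annotated on the strand opposite to any of these 4, but such loci are annotated opposite to *Y51H4A.1* (1 locus) and *C09B9.4* (3 loci), which are among the 6 genes with few reads. Among compared genes with known coordinates, 216 have a piRNA locus on the opposite strand. Of these, 2 were not at least 2-fold lower, against 6 of 10998 without such a locus. Entries without coordinates, among them transposon genes, were left out of these groups. The median ratio was lower with such a locus, 0.00449 against 0.00750, while ratios above 0.1 were more frequent, 6.02% against 3.09%. No difference between these groups was tested.

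miRNAs were lower with few exceptions. Of 216 mature arms compared, 200 (92.6%) were lower and 10 (4.63%) higher by 2-fold or more, with a median ratio of 0.00895. The most abundant, miR-58a-3p, had 55644 and 71825 RPM before and 361 RPM after oxidation, 177-fold lower. The developmental timing miRNA let-7-5p had 1977 and 2175 RPM and then 17.6 RPM (118-fold lower), its predecessor in the same pathway lin-4-5p had 263 and 216 RPM and then 1.96 RPM (122-fold lower), and the muscle miRNA miR-1-3p had 8332 and 8501 RPM and then 44.0 RPM (191-fold lower). No abundant miRNA approached the behaviour of piRNAs.

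miRNA families differed little from each other. The sum over the mir-58/80 family was 186-fold lower (170 to 202), that over the mir-35 family of early embryos 169-fold lower (157 to 181), and that over the let-7 family 140-fold lower (136 to 144). The mir-51 family, with an untreated sum of 4833 and 4796 RPM, was 106-fold lower, and the lin-4 family was 104-fold lower (94.7 to 113). Above these stood miR-71-5p, with 12905 and 10817 RPM and then 161 RPM, 73.6-fold lower, and miR-85-3p, with 2084 and 2032 RPM and then 149 RPM, 13.8-fold lower. Each arm in these family sums was at least 2-fold lower.

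**Figure D5:**
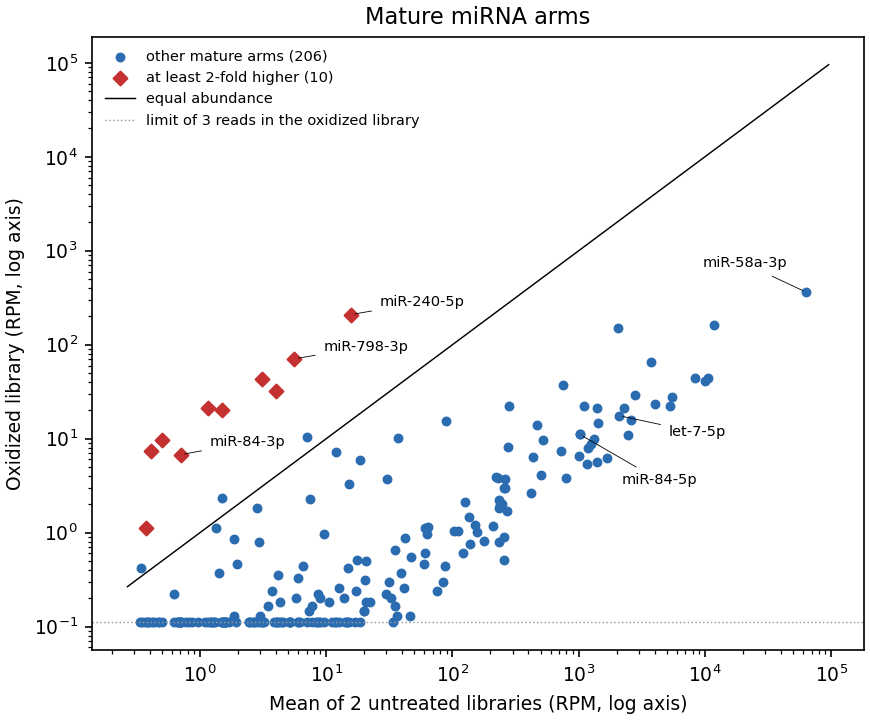
Abundance of 216 mature miRNA arms in the oxidized library against the mean of the 2 untreated libraries (RPM, log axes). Values of up to 3 oxidized reads are drawn on the dotted line. The 10 arms that were at least 2-fold higher lie above the line of equal abundance and are rare in untreated worms, while miR-58a-3p and let-7-5p lie far below it.

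The 10 miRNA arms that were higher were rare before oxidation, and those not among the highest or most abundant arms were named after their values were seen. miR-240-5p had 15.9 and 15.3 RPM and then 209 RPM, 13.4-fold higher (13.1 to 13.6), which made it the second most abundant entry of the class in the oxidized library. miR-798-3p had 4.77 and 6.39 RPM and then 70.7 RPM (12.7-fold), and miR-8202-5p had 2.59 and 3.63 RPM and then 43.5 RPM (13.97-fold). miR-5549-3p, miR-4936-3p, miR-8198-3p and miR-232-5p were 19.4-, 18.3-, 18.1- and 13.51-fold higher, with untreated values from 0.331 to 1.52 RPM. miR-84-3p and miR-78-3p were 9.62- and 8.001-fold higher, and miR-800-5p was 2.95-fold higher. Of the 10, 9 had ratios inside the range that holds 90% of the piRNA loci.

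In several hairpins the arms parted. For *mir-84*, a let-7 family gene (hairpin on chromosome X, 16022404 to 16022478), the guide miR-84-5p had 954 and 1082 RPM and then 11.1 RPM, 91.5-fold lower, whereas miR-84-3p had 0.763 and 0.640 RPM and then 6.75 RPM. For *mir-240*, miR-240-3p had 9.53 and 11.5 RPM and then 0.184 RPM, 57.1-fold lower, against the higher miR-240-5p. For *mir-232*, miR-232-3p had 19.3 and 14.9 RPM and then 0.240 RPM, 71.2-fold lower, against the higher miR-232-5p. For *mir-800*, miR-800-3p had 1.07 and 1.12 RPM and then 1 read, a ratio of 0.0338 (Poisson 95% interval 0.000855 to 0.188). Annotated piRNA loci, counted on either strand, overlap the hairpins of miR-78, with 2 loci, and miR-8198, with 3 loci, both on chromosome IV. None overlaps the hairpins of the other 8 raised arms. The hairpin of miR-790, also on chromosome IV, overlaps 1 locus, and both of its arms were lower, with ratios of 0.0214 and 0.195. The part of piRNA reads in these entries was not tested.

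Transposon consensus sequences, matched by small RNAs of all classes, were lower without exception. All 127 compared (100%) were lower by 2-fold or more and 0 (0%) higher, and with reads outside piRNAs as the denominator 84 were lower and 1 higher by that much. The DNA transposon Tc1, a member of the Tc1/mariner superfamily, had 1461 and 1395 RPM before and 106 RPM after oxidation, 13.48-fold lower. Tc4 had 728 and 694 RPM and then 33.8 RPM (21.1-fold), and Tc2 had 95.6 and 95.5 RPM and then 10.3 RPM (9.28-fold). Over the 5 entries Tc1, Tc2, Tc4, Tc5 and Tc6 the sum was 14.4-fold lower (14.1 to 14.8).

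Cer elements, the LTR retrotransposons of the worm, gave a sum of 9368 and 8653 RPM before and 798 RPM after, 11.3-fold lower (10.8 to 11.7). CER9-I had 1562 and 1410 RPM and then 134 RPM (11.1-fold), while CER7-I had 114 and 109 RPM and then 0.664 RPM (168-fold). Among consensus entries with a mean of at least 50 untreated reads, the highest ratio was 0.216, that of CER16-1-LTR. It had 39.8 and 36.6 RPM and then 8.24 RPM, and its ratio becomes 1.46 with reads outside piRNAs as the denominator.

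The oxidized *eggd-1* library, set against its own untreated libraries, gave similar class ratios for the most part: 12.8 for piRNAs, 0.0277 for 22G-RNAs and 9.25 for 26G-RNAs of ERGO-1 class genes, beside 14.5, 0.0268 and 10.96 in wild-type. The whole 26G-RNA sum had a ratio of 2.84 in *eggd-1* against 7.17 in wild-type, a difference that was not tested. Locus by locus, the log2 ratios of the genotypes were compared for features with reads in both oxidized libraries and enough untreated reads in both genotypes. They were correlated with r = 0.68 and rho = 0.63 over 5793 piRNA loci and r = 0.95 and rho = 0.83 over 209 26G-RNA genes. Features without an oxidized read, 153 of the 409 compared 26G-RNA genes in wild-type, are thus left out. The points share libraries, depth and sequence and are not independent.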

How the data were processed

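Small RNA libraries of adult wild-type worms were compared, 2 untreated and 1 oxidized, with 3 *eggd-1* libraries beside them. The authors trimmed reads with Trim Galore, aligned them with Bowtie, allowing no mismatch, to WormBase WS279, and split each read over its genome locations and the features it overlapped. The resulting expected counts were deposited by the authors, as were the same values in RPM, scaled to genome-mapped reads. piRNA reads had to be unique, sense and start with T, and 22G-RNA reads antisense and start with G or A. The authors' files also assign the target classes. A feature missing from a library was taken as 0, and miRNA precursor entries were left out.

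RPM ratios were computed in Python 3.11.15 with pandas 2.3.3, and intervals with scipy 1.17.1, for features with a mean of at least 10 untreated reads. Coordinates are those of Ensembl release 115 for WBcel235, which is also the WS279 assembly. The calculation was tested on simulated data. No differences were tested and p-values were not computed, since 1 library was oxidized. Depth, from expected counts over RPM, was between 27109317 and 31245662 reads. Wilson and Poisson intervals at 95% and the limit of 3 counts cover counting error only. The untreated libraries are biological replicates by the study's methods.

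The members, lists and rules were chosen with earlier results of these data known. Named were, per class, the 5 features with the highest and the 5 with the lowest ratio among those with at least 50 mean untreated reads, the 5 most abundant before and after oxidation, and lists of miRNA families, transposons, 26G-RNA classes and pathway genes. Alternatives were other denominators (reads assigned to the counted classes, reads outside piRNAs, TMM factors from edgeR 4.0.16 in R 4.3.3), filters, a fold of 4, a pseudocount of 0.1 RPM and leaving out each untreated library. A split of piRNAs by sequence was not analysed here, and no sequences are shown.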

Additional observations from a re-analysis of the deposited data

Results flagged for a closer look

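With genome-mapped reads as the denominator, the summed 26G-RNAs of 3 target classes were higher after oxidation in wild-type and lower in *eggd-1*. Each genotype was set against its own 2 untreated libraries. The difference between the genotypes was not tested, and each has 1 oxidized library. Over CSR-1 genes the ratio was 2.68 in wild-type and 0.697 in *eggd-1*. Over WAGO-1 genes it was 1.60 and 0.625, and over ALG-3/4 genes 1.76 and 0.466. The untreated sums were higher in *eggd-1* in each class. They were 307 and 294 RPM against 160 and 165 RPM in wild-type for CSR-1. For WAGO-1 they were 88.4 and 83.4 against 63.8 and 65.1 RPM, and for ALG-3/4 1180 and 1048 against 324.2 and 350.9 RPM. With reads outside piRNAs as the denominator the wild-type ratios of the 3 classes were 18.1, 10.8 and 11.95. The *eggd-1* ratios were not computed with that denominator, although *eggd-1* piRNAs also went from 65441.5 and 69888.4 RPM to 864314 RPM. Whether the directions stay opposite with it was therefore not tested. Each sum leaned on a single gene in the oxidized wild-type library. *Y116F11A.1* held 44.9% of the CSR-1 sum, *Y57G11C.51* held 77.7% of the WAGO-1 sum and *K02E2.11* held 89.1% of the ALG-3/4 sum. Without these genes the ratios were 1.65 in wild-type and 0.480 in *eggd-1* for CSR-1, 0.402 and 0.258 for WAGO-1, and 0.225 and 0.0791 for ALG-3/4. With genome-mapped reads as the denominator, the opposite directions were thus kept for CSR-1 alone, where only the top gene was left out. Other genes with both the CSR-1 and the ERGO-1 label stayed in that sum. Among them was *E01G4.5*, with 12.8 and 12.5 RPM and then 120 RPM in wild-type, and the ratio without it was not computed. The genes *Y116F11A.1* and *Y57G11C.51* also carry the ERGO-1 label.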

How the results depend on the processing

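Changing the denominator multiplied every ratio by a common factor: 0.706 for reads assigned to the counted classes, 6.77 for reads outside piRNAs and 0.928 for TMM scaling. In that order the ratios became 10.2, 98.2 and 13.46 for piRNAs, 0.00788, 0.0756 and 0.0104 for miRNAs, 0.0189, 0.182 and 0.0249 for 22G-RNAs, 5.06, 48.5 and 6.65 for 26G-RNAs, 0.0480, 0.461 and 0.0632 for transposon consensus reads, 7.74, 74.3 and 10.2 for ERGO-1 26G-RNAs, 1.24, 11.95 and 1.64 for ALG-3/4 26G-RNAs and 9.93, 95.3 and 13.1 for the piRNA locus median. None of these ratios crossed 1, whereas the 26G-RNA sum of HRDE-1 genes went from 0.300 to 2.03 with reads outside piRNAs as the denominator. The miRNA ratio was 0.0117 with precursors counted.

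Without *K02E2.11*, an alternative chosen after seeing the data, the ALG-3/4 ratio turned to 0.225, a change that comes from leaving out that gene. With reads outside piRNAs as the denominator, 27 22G-RNA genes, 20 miRNA arms and 1 transposon consensus were at least 2-fold higher. Without a filter and with a pseudocount of 0.1 RPM, the piRNA median was 9.24, and 11927 piRNA loci, 203 26G-RNA genes and 6 22G-RNA genes were at least 2-fold higher. With at least 50 mean untreated reads these were 3238 piRNA loci, 57 26G-RNA genes and 4 miRNA arms, because fewer features were compared. Leaving out either untreated library gave the ranges stated above, for example 14.2 to 14.8 for the piRNA sum. With 2 untreated libraries such a shift stays within their own spread almost by construction, so it is no check of robustness. Fewer than 10 untreated reads leave too little depth to show a 2-fold lower value, and 1 oxidized library gives no replicate error.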

Other observations

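The small class of siRNAs antisense to ribosomal RNA had 4 compared entries, all at least 2-fold lower after oxidation, and its sum went from 10.1 and 6.91 RPM to 0.111 RPM, 76.9-fold lower. Transposon genes, whose 22G-RNAs were lower throughout, had 8 genes with enough 26G-RNAs to compare, of which 3 were at least 2-fold higher and 5 lower, where 23.7% of all compared 26G-RNA genes were higher, and their 26G-RNA sum went from 31.3 and 32.6 RPM to 262 RPM, 8.19-fold higher. Oogenic genes gave 7 of 9 higher in 26G-RNAs beside the same 23.7%, with a sum that went from 159 and 145 RPM to 1650 RPM.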
